A study of Homo sapiens with 12 samples.

Results

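Collagen chain genes were followed in MV3, an established human melanoma line from a lymph node metastasis. Members were all genes of the deposited tables whose symbol is COL, a number, A and a number. The rule uses the name alone and took 44 genes of 58288, of which 19 had reads enough to test, among 14088 testable genes. MV3 cells were held for 3 h in low-serum RPMI and then for 24 h in 1 of 4 media, with 3 libraries each. Ctrl was fresh RPMI that no cell had conditioned. The other media came from macrophages of the THP-1 monocyte line, differentiated with PMA (M0), then polarized with LPS and IFNγ (M1) or with IL4 and IL13 (M2). All 3 conditioned media therefore come from PMA-treated cells of 1 leukaemic line, and a comparison with Ctrl includes conditioning itself. The labels do not say that replicates are separate cultures, so p-values rest on the spread among these libraries, part or all of which may be technical.

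Collagens are secreted or membrane-anchored proteins built from chains that wind into a triple helix. Each gene encodes 1 chain, and a collagen type forms either from copies of a single chain or from partner chains. Fibrillar collagens (I, V, XXVII) build fibres, and FACIT collagens (fibril-associated collagens with interrupted triple helices, such as XII and XVI) sit on them. Type IV forms the network of basement membranes, type VIII a short-chain network, type VI beaded filaments and type VII anchoring fibrils. Types XIII and XVII span the cell membrane, and the multiplexins XV and XVIII are basement membrane collagens that carry sugar chains. In melanoma, collagen is best known as a product of stromal fibroblasts, but tumour cells also make it.

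Library totals ran from 21788397 to 42921242 counts. The collagen genes together took 0.133% to 0.237% of the counts of a library. Levels are given in CPM, which are counts scaled to library size. Summed over all 44 genes, the level was 2129 ± 193 CPM (mean ± SD, n = 3) in Ctrl, 1745 ± 86.2 in M0, 1812 ± 382 in M1 and 1885 ± 101 in M2. Within M1 the 3 libraries stood at 1941, 1382 and 2113 CPM. M1 replicate 2 was thus the lowest of all 12 libraries, and it was the lowest of its group in 17 of the 19 tested collagen genes, against 40.6% of all genes. Its log2 level differed from the mean of the other M1 libraries by a median of -0.48 over the tested collagen genes and by -0.29 over the quintile of all genes richest in G and C, while the quintile poorest in G and C stood at 0.11. The tested collagen genes had a median GC content of 60.3%, against 47.7% of all genes, and 11 of the 19 were in the richest quintile. For single members the difference of M1 replicate 2 ran from -1.30 (COL16A1, GC 62.8%) to 0.10 (COL12A1, 46.3%). It was -0.46 for COL8A1 (46.8%), -0.70 for COL4A5 (50.9%), 0.03 for COL27A1 (61.3%) and -0.95 for COL18A1 (67.2%). The part of GC content in the collagen values was not tested. M2 replicate 1 was the highest of its group in 15 of the 19 genes, against 37.4% of all genes. Ctrl replicate 2 was the lowest of its group in 12 of the 19, against 27.2% of all genes.

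Marker levels were read for the other cells the wells could hold. None of 12 macrophage and monocyte markers had reads enough to test, their summed level was 0.25 to 0.868 CPM across the 12 libraries, and AIF1 was at 0 in all of them. Of 10 melanocytic markers MITF alone was testable, TYR, S100B and MIA were at 0 in every library, and the other 6 had at most 5 reads in any, so most markers of the melanocyte lineage were absent or nearly so. The dedifferentiated-state markers AXL, EGFR, SOX9 and FOSL1 were testable and NGFR was not. Of 9 fibroblast markers 5 were testable, COL1A1 among them, beside FAP (group means of 29.5 to 45.7 CPM), PDGFRA (16.1 to 25.8), PDGFRB (1.27 to 2.87) and LUM (0.0746 to 0.433). Of the other 4, DCN had at most 2 reads in a library, THY1 and COL1A2 at most 4 and COL3A1 at most 14. The part of other cells in the results was not tested.

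Among the 25 genes with too few reads, COL1A2, COL4A1, COL4A2 and COL3A1 bear most on the family, since they belong to the most widespread collagens. COL1A2, the partner chain of COL1A1 in type I collagen, had 0 to 4 reads in a library, while COL1A1 had 7902 to 35886. COL1A1 chains can also form a trimer on their own. COL4A1 had at most 1 read and COL4A2 at most 2, although they encode the chains found in nearly every basement membrane. COL3A1, the fibrillar chain of soft tissues, had 0 to 14 reads, and COL11A2, a minor fibrillar chain of cartilage, had 3 to 14. COL2A1, COL4A3, COL9A1, COL23A1 and COL26A1 had 0 reads in all 12 libraries, which allows up to 0.0699 to 0.138 CPM in a library, counting error only. COL19A1 had at most 10 reads in a library and COL21A1 at most 5. Another 12 genes had at most 3 reads in any library, namely COL4A4, COL6A5, COL6A6, COL8A2, COL9A3, COL10A1, COL11A1, COL14A1, COL20A1, COL22A1, COL24A1 and COL25A1. COL28A1 had at most 1 read.

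Levels of different genes were compared per kilobase of merged exon. Merged exons can far exceed the longest transcript, as in COL4A5 (11865 against 6483 bases) and COL13A1 (5888 against 3187), or lie near it, as in COL5A2 (7453 against 7081). The order of genes with near levels thus depends on this choice of length. In Ctrl, the type VI chains COL6A2 and COL6A1 and the type I chain COL1A1 led, at 88.0 ± 6.68, 82.7 ± 12.4 and 71.0 ± 11.3 CPM per kb (SD, n = 3), and their ranges overlapped from one to the next. COL12A1 followed at 14.1 CPM per kb, COL5A1 at 10.3 and COL5A2 at 9.22, with overlapping ranges for the latter pair. COL13A1 stood at 5.88 and COL8A1 at 5.66 CPM per kb, also overlapping. COL4A5, COL4A6 and COL18A1 lay between 1.80 and 1.29 CPM per kb, COL27A1 at 0.710, COL17A1 at 0.528 and COL6A3 at 0.227. COL5A3, COL9A2, COL7A1, COL15A1 and COL16A1 had means of 0.104 down to 0.0623 CPM per kb, with ranges that overlapped. COL1A1, COL6A1 and COL6A2 together made 69.0% to 79.9% of the collagen reads of a library.

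The main question of the design is how the 3 conditioned media differ from one another. In M1 against M0, higher genes were the fibrillar chains COL5A1 and COL27A1, the type VI chain COL6A3, the anchoring fibril chain COL7A1 and the FACIT chains COL16A1 and COL12A1, and lower genes were COL8A1, COL13A1 and COL17A1. By edgeR's quasi-likelihood test at an adjusted p under 0.05, 9 of 19 collagen genes thus differed, against 52.2% of all genes tested, and 6 were higher, against 25.5%. The 3 lower genes compare with 26.7% of all genes. As a share the collagen genes were near the background. Their median log2 fold change was 0.029, against -0.011 over all genes, and the median size of the change was 0.41 against 0.31.

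In M2 against M0, 4 of 19 collagen genes were higher (12.5% of all genes were) and 0 were lower (12.7%), so that 4 were called against 25.2% of all genes. The background share hung on single libraries: leaving out M0 replicate 3 gave 11.1% with 3 collagen genes called, M2 replicate 2 gave 13.5% with 3, M2 replicate 3 gave 13.2% with 4, and dropping the first 2 of these together 3.6% with 3. The 4 genes were COL5A1, COL27A1, COL6A3 and COL7A1, each also called higher in M1 against M0, and both comparisons share the M0 libraries. In M1 against M2, 6 of 19 were called against 32.5% of all genes, with COL12A1, COL16A1 and COL5A1 higher (15.9%) and COL8A1, COL13A1 and COL17A1 lower (16.6%). Without M2 replicate 1 that count was 3. The joint test of any difference among the 3 media called the same 9 genes as M1 against M0, against 56.6% of all genes.

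Against fresh medium, most called collagen genes were lower in M0 and M2 medium. M0 medium gave 11 calls of 19, against 61.7% of all genes, with 1 higher (31.1%) and 10 lower (30.6%). The median log2 fold change was -0.63 over the tested collagen genes and 0.0040 over all genes. M2 medium gave 9 calls against 66.5%, with 2 higher (34.1%) and 7 lower (32.4%), and a median of -0.24 against 0.021. M1 medium gave 15 calls against 70.2%, with 6 higher (35.2%) and 9 lower (35%), and a median of -0.15 against -0.0038. The 3 comparisons share the Ctrl libraries. In all 3 of them 7 genes were lower, namely COL1A1, COL5A2, COL4A5, COL4A6, COL8A1, COL13A1 and COL15A1. The share of all genes lower in all 3 was not counted, so this number has no background to be read against. COL6A1 and COL9A2 were called in no comparison.

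**Figure D1:**
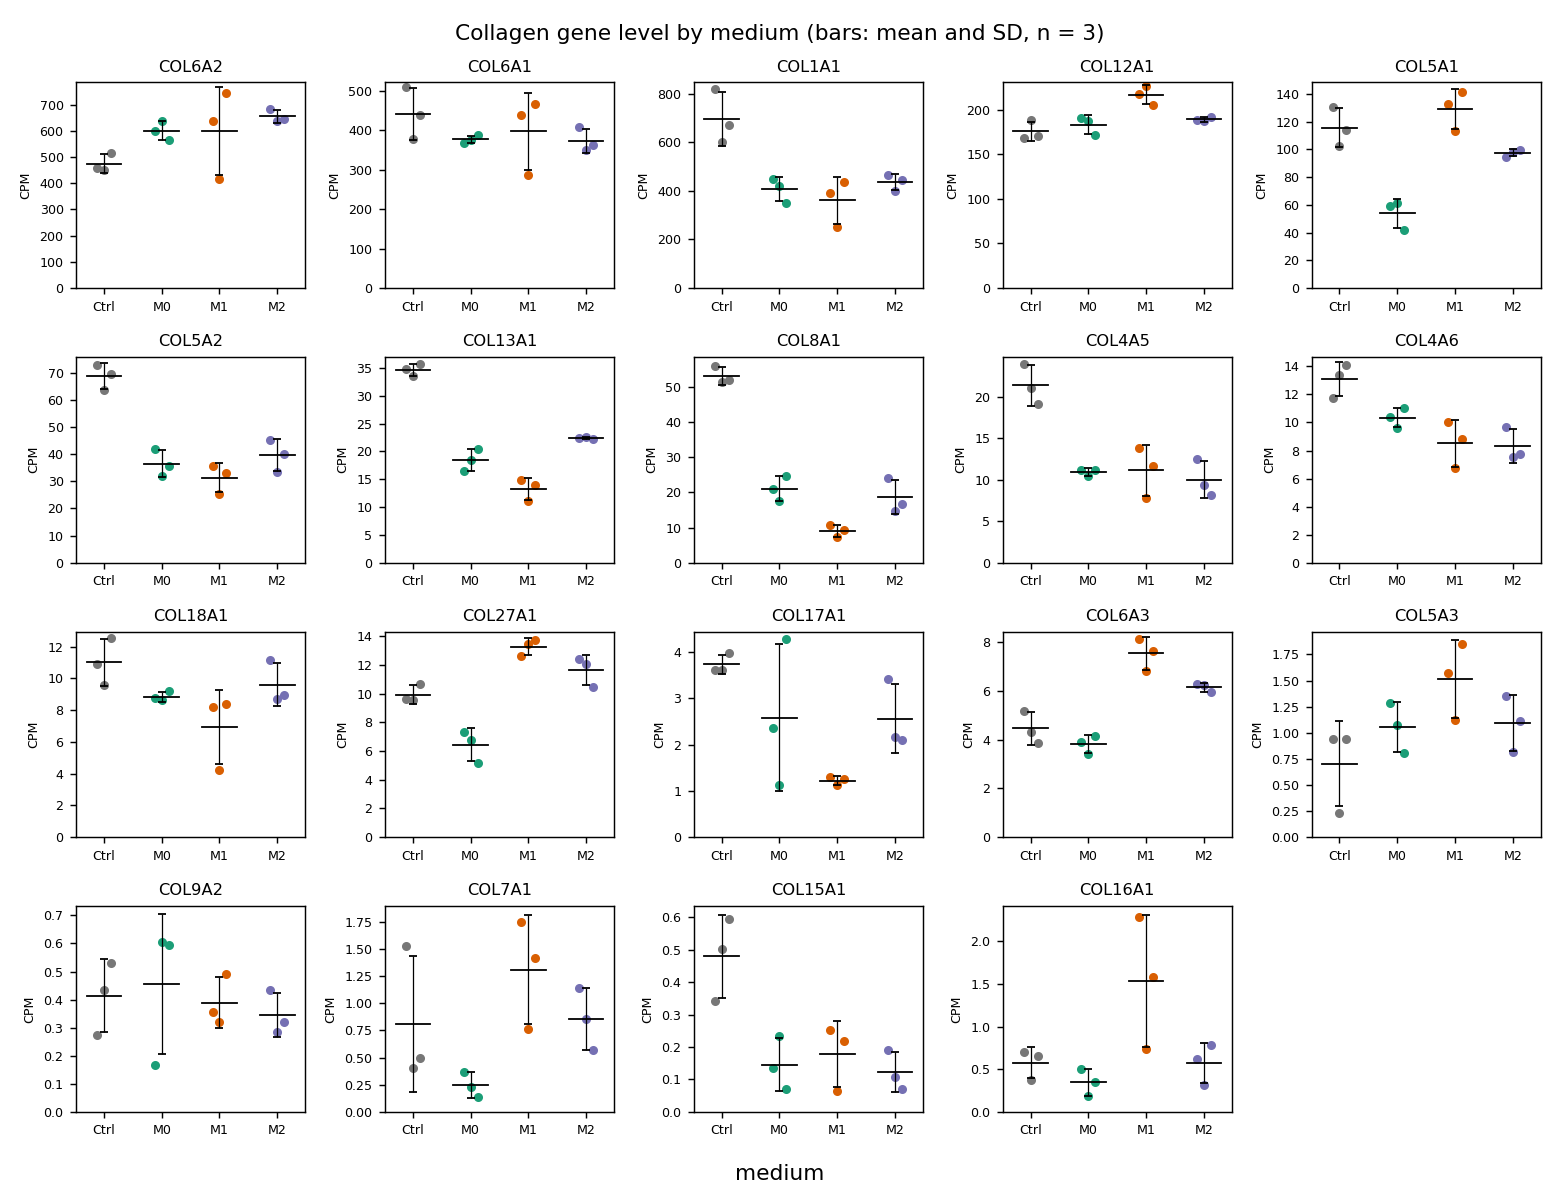
Level of each tested collagen gene by medium in CPM, with each library a point and bars for mean and SD (n = 3), axes starting at 0 and scaled per gene. COL8A1 falls from 53.2 CPM in Ctrl to 9.09 in M1, while COL5A1 is at 54.0 CPM in M0 and 129 in M1.

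Among the fibrillar chains, COL1A1 was the most abundant. It encodes the main chain of type I collagen and lies on the minus strand of chr17:50183289-50201632 (GRCh38, as are all gene positions here). Its level was 819, 602 and 670 CPM in the Ctrl libraries, 449, 420 and 352 in those of M0, 393, 253 and 439 in those of M1 and 466, 398 and 445 in those of M2. Every Ctrl library lay above every conditioned one, and the conditioned media overlapped each other. The log2 fold change against Ctrl was -0.78 ± 0.17 (SE) in M0, -0.95 ± 0.28 in M1 and -0.68 ± 0.15 in M2, with adjusted p of 0.00063, 7.85e-05 and 0.00161.

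COL5A1 encodes the chain present in most type V collagen, which sets the diameter of type I fibrils, and lies at chr9:134641774-134844843. Its level was 130, 103 and 114 CPM in the Ctrl libraries, 58.9, 61.1 and 41.8 in those of M0, 133, 114 and 141 in those of M1 and 94.7, 98.2 and 99.6 in those of M2. The M0 libraries lay below all others, M2 below both Ctrl and M1, and Ctrl and M1 overlapped. COL5A1 was 2.40-fold higher in M1 than in M0 (log2 1.26 ± 0.20, adjusted p = 1.09e-06) and 1.81-fold higher in M2 than in M0 (log2 0.86 ± 0.18, adjusted p = 0.000799). Against Ctrl it fell by 1.10 on the log2 scale in M0 (adjusted p = 1.70e-06) and did not pass in M1 (log2 0.16, adjusted p = 0.256) or M2 (log2 -0.25, adjusted p = 0.0827). Its difference between M1 and M2 (log2 0.41 ± 0.10, adjusted p = 0.0178) lost the call without M1 replicate 3 (adjusted p = 0.0657) or M2 replicate 1 (adjusted p = 0.0590).

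COL5A2, the usual partner of COL5A1 in type V collagen, was lower in all 3 conditioned media than in Ctrl. Its level was 73.0, 63.6 and 69.5 CPM in the Ctrl libraries, 42.0, 32.0 and 35.6 in those of M0, 35.7, 25.3 and 33.2 in those of M1 and 45.2, 33.4 and 40.2 in those of M2. All Ctrl libraries lay above all conditioned ones, and the 3 conditioned media overlapped. COL5A2 fell by 0.91 (M0), 1.13 (M1) and 0.79 (M2) on the log2 scale against Ctrl, with adjusted p of 2.24e-05, 1.42e-06 and 6.27e-05. In M1 against M0 it stood at log2 -0.22 ± 0.19 (adjusted p = 0.179). The third type V chain, COL5A3, was scarce, at 0.936, 0.234 and 0.938 CPM in the Ctrl libraries, 1.28, 1.07 and 0.806 in those of M0, 1.57, 1.12 and 1.85 in those of M1 and 1.36, 0.816 and 1.11 in those of M2. It was called in M1 against Ctrl alone (log2 1.07 ± 0.62, adjusted p = 0.0114), where the groups did not overlap, and without M1 replicate 3 it was not (adjusted p = 0.0505).

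COL27A1, a fibrillar chain known from cartilage, lies at chr9:114155560-114312511. Its level was 9.59, 9.55 and 10.7 CPM in the Ctrl libraries, 7.36, 6.80 and 5.15 in those of M0, 12.6, 13.5 and 13.7 in those of M1 and 12.4, 12.1 and 10.4 in those of M2. All M0 libraries were lowest and all M1 libraries highest, while M2 overlapped Ctrl. It rose 2.06-fold in M1 (log2 1.04 ± 0.16, adjusted p = 6.24e-06) and 1.81-fold in M2 (log2 0.86 ± 0.17, adjusted p = 0.000797) against M0. Against Ctrl, COL27A1 fell by 0.63 in M0 (adjusted p = 0.000438) and rose by 0.42 in M1 (adjusted p = 0.00456) on the log2 scale.

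The type VI chains were followed next. COL6A1 and COL6A2 are neighbours on the plus strand of chromosome 21, at chr21:45981737-46005050 and chr21:46098097-46132849, and form beaded filaments together with COL6A3 or its relatives. COL6A1 stood at 511, 378 and 438 CPM in the Ctrl libraries, 369, 376 and 387 in those of M0, 438, 287 and 467 in those of M1 and 408, 351 and 362 in those of M2, and all 4 groups overlapped. COL6A2 stood at 457, 450 and 515 CPM in the Ctrl libraries, 600, 639 and 565 in those of M0, 638, 415 and 745 in those of M1 and 684, 637 and 645 in those of M2. Every M0 and M2 library exceeded every Ctrl library, and M1 overlapped Ctrl through replicate 2.

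COL6A2 was 1.38-fold higher in M2 than in Ctrl (log2 0.47 ± 0.07, adjusted p = 0.00916). Its calls in M0 against Ctrl (log2 0.34 ± 0.08, adjusted p = 0.0481) and M1 against Ctrl (log2 0.34 ± 0.26, adjusted p = 0.0451) lay close to the threshold. The first was lost when any of its 6 libraries was left out (adjusted p of 0.0579 to 0.166), at log2 0.28 to 0.39. It was also lost with DESeq2's size factors in place of TMM (adjusted p = 0.0607). The second was lost without Ctrl replicate 1 or 2 or M1 replicate 1 or 3 (adjusted p up to 0.297). With single libraries left out it ran from log2 0.16 (without M1 replicate 3) to 0.55 (without M1 replicate 2). In M1 against M0, COL6A1 stood at log2 0.075 ± 0.22 and COL6A2 at -0.0047 ± 0.26, neither called. Without M1 replicate 2 both were called higher, COL6A1 at 0.28 (adjusted p = 0.0351) and COL6A2 at 0.21 (adjusted p = 0.0452).

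COL6A3, the longest type VI chain, was far less abundant per kb. Its level was 5.18, 4.32 and 3.88 CPM in the Ctrl libraries, 3.91, 3.4 and 4.14 in those of M0, 8.12, 6.82 and 7.64 in those of M1 and 6.27, 6.24 and 5.94 in those of M2. All M1 and M2 libraries lay above all Ctrl and M0 libraries, and M1 lay above M2. COL6A3 rose 1.96-fold in M1 (log2 0.97 ± 0.11, adjusted p = 2.33e-05) and 1.60-fold in M2 (log2 0.68 ± 0.09, adjusted p = 0.00306) against M0. It also rose against Ctrl, by 0.75 in M1 (adjusted p = 7.42e-05) and 0.46 in M2 (adjusted p = 0.00569) on the log2 scale. The difference between M1 and M2 did not pass (log2 0.29 ± 0.08, adjusted p = 0.0848).

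The type IV chains that were measured were COL4A5 and COL4A6, which lie head to head on chromosome X. COL4A5 runs on the plus strand of chrX:108439844-108697545 and COL4A6 on the minus strand of chrX:108155607-108439497. COL4A6 has a further RefSeq start at chrX:108438422, and the nearest starts of the pair are 379 bases apart. The 250 bases before the COL4A5 start lie in this gap and are shown because both genes read outward from it. Capitals mark the letters CCAAT on either strand, which were found in 32.0% of all 35116 promoter windows of this length (RefSeq, GRCh38.p14).
COL4A5, chrX:108439588-108439837, plus strand: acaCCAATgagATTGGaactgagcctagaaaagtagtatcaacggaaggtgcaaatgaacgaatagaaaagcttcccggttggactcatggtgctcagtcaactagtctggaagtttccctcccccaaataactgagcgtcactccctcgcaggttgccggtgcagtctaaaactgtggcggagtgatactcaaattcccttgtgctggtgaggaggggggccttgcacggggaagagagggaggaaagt
CCAAT occurred 2 times in this window, on opposite strands. It was found in the windows of 4 of the 15 tested collagen genes with a promoter entry, COL4A5, COL4A6, COL5A3 and COL17A1. A gene was counted if any of its windows matched, while the share above counts single windows. A match is a description of letters and not of a bound site.

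COL4A5 stood at 24.0, 21.0 and 19.1 CPM in the Ctrl libraries, 11.2, 10.4 and 11.2 in those of M0, 13.9, 7.81 and 11.7 in those of M1 and 12.4, 9.40 and 8.15 in those of M2. COL4A6 stood at 11.8, 13.4 and 14.1 CPM in the Ctrl libraries, 10.4, 9.64 and 11 in those of M0, 10.0, 6.72 and 8.81 in those of M1 and 9.71, 7.52 and 7.76 in those of M2. For both genes every Ctrl library was above every conditioned one. COL4A5 fell by 0.97 (M0), 0.94 (M1) and 1.09 (M2) on the log2 scale against Ctrl, with adjusted p of 0.000212, 0.000169 and 5.48e-05. COL4A6 fell by 0.33, 0.61 and 0.64, with adjusted p of 0.0481, 0.000987 and 0.000786. The first of these was lost without any single library of its comparison but Ctrl replicate 1 (adjusted p of 0.0511 to 0.141). Neither gene differed among the conditioned media in the joint test (adjusted p of 0.724 and 0.129).

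COL8A1, a chain of the short-chain network found in vessel walls and under the corneal endothelium, was lower in all 3 conditioned media than in Ctrl and lowest in M1. It lies at chr3:99638475-99799226. Its level was 56.2, 51.4 and 52.1 CPM in the Ctrl libraries, 21.1, 17.6 and 24.6 in those of M0, 10.7, 7.23 and 9.36 in those of M1 and 24.1, 14.8 and 16.8 in those of M2. All Ctrl libraries were above all others, all M1 libraries below all others, and M0 and M2 overlapped. COL8A1 was 5.83-fold lower in M1 than in Ctrl (log2 -2.54 ± 0.17, adjusted p = 2.97e-09), with log2 -1.33 ± 0.14 in M0 (adjusted p = 3.93e-06) and -1.51 ± 0.21 in M2 (adjusted p = 7.66e-07). M1 was 2.32-fold below M0 (log2 -1.21 ± 0.22, adjusted p = 3.77e-05) and 2.04-fold below M2 (log2 -1.03 ± 0.26, adjusted p = 0.000321).

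Of the membrane-spanning collagens, COL13A1, found at cell-matrix and neuromuscular junctions, was also lower in each conditioned medium. Its level was 34.8, 33.5 and 35.6 CPM in the Ctrl libraries, 16.5, 18.4 and 20.4 in those of M0, 14.8, 11.1 and 13.9 in those of M1 and 22.3, 22.6 and 22.1 in those of M2. The 4 groups did not overlap, in the order Ctrl, M2, M0, M1 from high to low. COL13A1 fell against Ctrl by 0.91 (M0), 1.38 (M1) and 0.63 (M2) on the log2 scale, with adjusted p of 1.34e-06, 7.48e-09 and 3.76e-05. M1 was lower than M0 (log2 -0.47 ± 0.15, adjusted p = 0.00136) and than M2 (log2 -0.75 ± 0.13, adjusted p = 4.55e-05). M2 against M0 stood at log2 0.28 ± 0.09 and did not pass (adjusted p = 0.0568), and it passed in DESeq2 (adjusted p = 0.0460).

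COL17A1, the hemidesmosome collagen of epithelia, stood at 3.61, 3.62 and 3.97 CPM in the Ctrl libraries, 2.36, 1.12 and 4.28 in those of M0, 1.29, 1.12 and 1.25 in those of M1 and 3.42, 2.16 and 2.11 in those of M2. M0 overlapped every other group, with replicate 3 the highest of all 12 libraries. COL17A1 fell by 1.60 in M1 against Ctrl on the log2 scale (adjusted p = 0.00036). In M1 against M0 it stood at log2 -1.11 ± 0.55 (adjusted p = 0.0125), and at -0.53 (adjusted p = 0.166) without M0 replicate 3. M0 against Ctrl was not called (log2 -0.49 ± 0.55, adjusted p = 0.169) but was without that library (-1.07, adjusted p = 0.00382). The difference between M1 and M2 (log2 -1.08 ± 0.23, adjusted p = 0.0215) was lost without M2 replicate 1 (adjusted p = 0.146) or any 1 M1 library (adjusted p of 0.0512 to 0.0637).

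COL7A1, the chain of anchoring fibrils, was scarce and uneven between replicates. Its level was 1.53, 0.402 and 0.500 CPM in the Ctrl libraries, 0.371, 0.233 and 0.140 in those of M0, 1.75, 0.768 and 1.42 in those of M1 and 1.14, 0.851 and 0.572 in those of M2. The M0 libraries were below all others, and Ctrl overlapped M1 and M2 through replicate 1. COL7A1 rose 5.24-fold in M1 against M0 (log2 2.39 ± 0.46, adjusted p = 0.00204), a call kept whichever library was left out. Its rise in M2 against M0 (log2 1.78 ± 0.41, adjusted p = 0.0397) was kept in 1 of 6 such fits (adjusted p up to 0.175). Its fall in M0 against Ctrl (log2 -1.76 ± 0.64, adjusted p = 0.0164) became -0.86 (adjusted p = 0.213) without Ctrl replicate 1 and -1.47 (adjusted p = 0.0711) without M0 replicate 3. Without Ctrl replicate 1 COL7A1 was also called higher in M1 against Ctrl (log2 1.55, adjusted p = 0.00438), where all libraries gave 0.63 (adjusted p = 0.191).

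Of the FACIT chains, COL12A1 was abundant and changed little. Its level was 169, 188 and 170 CPM in the Ctrl libraries, 191, 188 and 171 in those of M0, 218, 227 and 206 in those of M1 and 188, 187 and 192 in those of M2. All M1 libraries were above all others, and the other 3 groups overlapped. COL12A1 was 1.18-fold higher in M1 than in M0 (log2 0.24 ± 0.06, adjusted p = 0.00538) and 1.23-fold higher than in Ctrl (log2 0.30 ± 0.06, adjusted p = 0.000577). Against M2 it was 1.15-fold higher (adjusted p = 0.0284), a call lost without any 1 library of the pair but M1 replicate 3 (adjusted p of 0.0567 to 0.0867).

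COL16A1 stood at 0.708, 0.368 and 0.657 CPM in the Ctrl libraries, 0.506, 0.186 and 0.351 in those of M0, 2.28, 0.736 and 1.58 in those of M1 and 0.624, 0.319 and 0.787 in those of M2. M1 was above Ctrl and M0 in every library and overlapped M2 through replicate 2. It rose in M1 by log2 2.10 ± 0.57 against M0 (adjusted p = 0.00106) and 1.40 ± 0.53 against Ctrl (adjusted p = 0.00424). Against M2 it was higher by 1.42 ± 0.57 (adjusted p = 0.0118), and the call was lost without M1 replicate 1 (adjusted p = 0.0795) or M2 replicate 2 (adjusted p = 0.0549). COL9A2, a cartilage FACIT chain, had group means of 0.347 to 0.457 CPM.

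The multiplexins were lower in conditioned medium where called. COL18A1, whose end fragment is endostatin, stood at 10.9, 9.61 and 12.5 CPM in the Ctrl libraries, 8.74, 8.61 and 9.18 in those of M0, 8.22, 4.26 and 8.37 in those of M1 and 11.1, 8.73 and 8.94 in those of M2. M1 was below Ctrl in all libraries (log2 -0.65 ± 0.34, adjusted p = 0.00596). COL15A1 stood at 0.343, 0.502 and 0.594 CPM in the Ctrl libraries, 0.135, 0.233 and 0.0701 in those of M0, 0.254, 0.0640 and 0.218 in those of M1 and 0.190, 0.106 and 0.0715 in those of M2. It was below Ctrl in every conditioned library, by 1.73 (M0), 1.32 (M1) and 1.84 (M2) on the log2 scale as fitted, with adjusted p of 0.00643, 0.0117 and 0.00309. The M1 call was lost without Ctrl replicate 3 (adjusted p = 0.0512) or M1 replicate 2 (adjusted p = 0.0506) and in DESeq2 (adjusted p = 0.0665). Exons of COL18A1 overlap SLC19A1 on the opposite strand by 1401 bases, and COL5A3, COL15A1 and COL16A1 overlap opposite-strand genes by 270, 137 and 117 bases. The library kit keeps strand, but whether the counting used it is not given in the sources used here.

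**Figure D2:**
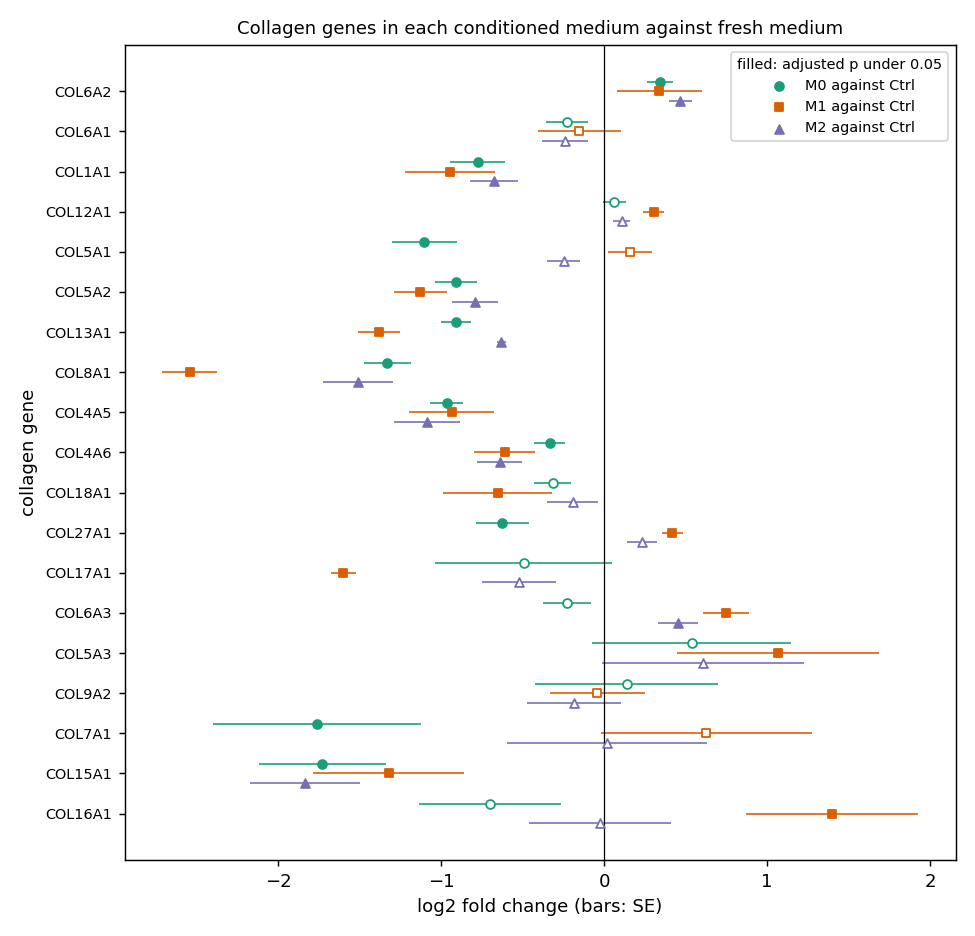
Log2 fold change of the 19 tested collagen genes in M0, M1 and M2 medium against Ctrl, with bars for the SE of 3 against 3 libraries, filled where the adjusted p was under 0.05. COL8A1 and COL13A1 are filled and left of 0 in all 3 comparisons, and COL6A2 is filled and right of 0, although its M0 and M1 calls were lost when single libraries were left out.

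Ratios of partner chains within a library, on the CPM per kb scale, cancel a change that both partners share. COL5A1 over COL5A2 was 1.19, 1.08 and 1.10 in the Ctrl libraries, 0.935, 1.27 and 0.781 in those of M0, 2.48, 2.99 and 2.83 in those of M1 and 1.40, 1.96 and 1.65 in those of M2. Every M1 library lay above every M2 library, and every M2 library above every Ctrl and M0 library. M1 replicate 2, lowest of its group for either chain, had the highest ratio. COL6A2 over COL6A1 was 0.887 to 1.18 in Ctrl, 1.45 to 1.69 in M0, 1.44 to 1.58 in M1 and 1.67 to 1.80 in M2, so that Ctrl lay below all conditioned libraries. M1 replicate 2 stood at 1.44, beside 1.44 and 1.58 in the other M1 libraries. COL4A5 over COL4A6 was 1.06 to 1.59 in Ctrl, 0.797 to 0.847 in M0, 0.909 to 1.08 in M1 and 0.822 to 1.00 in M2, with Ctrl overlapping M1. COL6A3 over COL6A1 was 0.00241 to 0.00311 in Ctrl and M0 and 0.00418 to 0.00647 in M1 and M2. The size of a ratio, and so which partner is ahead, depends on the gene lengths used, while its fold change between media does not. No test was run on the ratios.

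**Figure D3:**
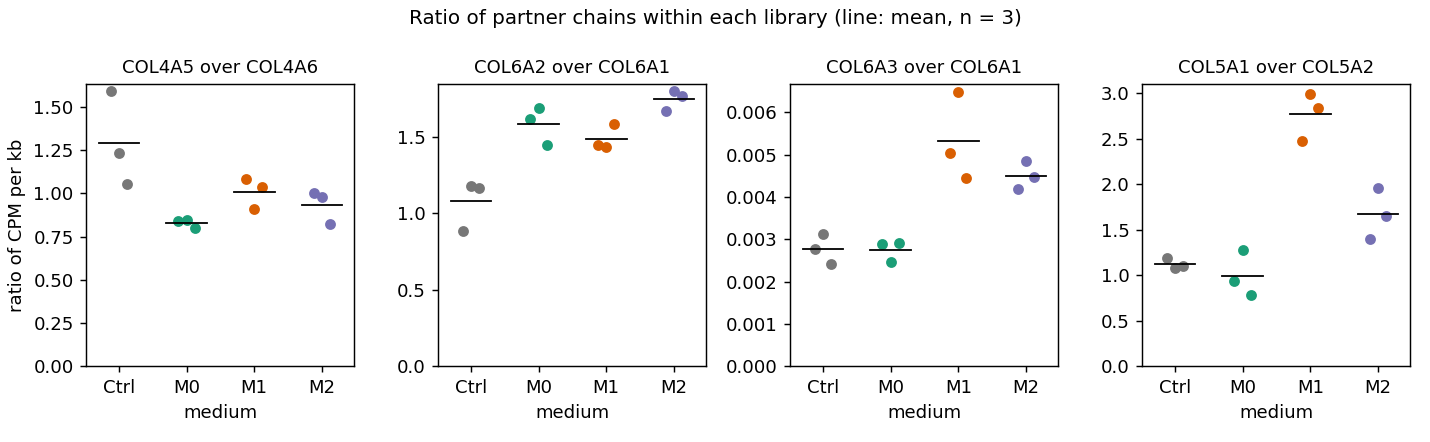
Ratio of partner collagen chains in CPM per kb within each library, by medium, with the line at the mean of 3 libraries and axes from 0. COL5A1 over COL5A2 runs from 2.48 to 2.99 in M1 and from 0.781 to 1.27 in M0, and COL6A2 over COL6A1 is lower in Ctrl than in each conditioned medium.

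Promoter windows were read for members that moved in opposite directions in M1 against M0. Of the 44 collagen genes 32 had a RefSeq entry, 15 of them tested (COL1A1, COL5A2, COL6A1 and COL8A1 had none). Capitals mark GGG and CC with 5 bases of any kind between them, on either strand, a loose spelling of the NF-kB site, with matches allowed to overlap. It was searched because the series' title names NF-κB signalling. Bases inside GENCODE exons of the gene were left off. The first 4 windows are from genes higher in M1.
COL5A1, chr9:134641553-134641773, plus strand: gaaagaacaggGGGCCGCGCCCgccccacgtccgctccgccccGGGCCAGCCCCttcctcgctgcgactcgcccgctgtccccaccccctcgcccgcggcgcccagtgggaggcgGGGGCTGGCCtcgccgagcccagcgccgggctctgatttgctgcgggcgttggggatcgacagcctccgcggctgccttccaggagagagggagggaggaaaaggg
COL27A1, chr9:114155287-114155536, plus strand: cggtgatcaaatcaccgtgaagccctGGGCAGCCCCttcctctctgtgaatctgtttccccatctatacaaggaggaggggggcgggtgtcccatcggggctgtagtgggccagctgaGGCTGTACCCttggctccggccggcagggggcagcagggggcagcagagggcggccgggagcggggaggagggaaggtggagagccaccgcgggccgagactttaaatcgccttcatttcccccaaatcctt
COL7A1, chr3:48595330-48595579, minus strand: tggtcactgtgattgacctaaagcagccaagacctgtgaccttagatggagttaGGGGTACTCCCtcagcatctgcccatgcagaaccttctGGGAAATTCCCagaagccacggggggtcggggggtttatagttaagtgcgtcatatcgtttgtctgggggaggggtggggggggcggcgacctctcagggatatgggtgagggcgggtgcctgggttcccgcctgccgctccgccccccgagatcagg
COL12A1, chr6:75206054-75206303, minus strand: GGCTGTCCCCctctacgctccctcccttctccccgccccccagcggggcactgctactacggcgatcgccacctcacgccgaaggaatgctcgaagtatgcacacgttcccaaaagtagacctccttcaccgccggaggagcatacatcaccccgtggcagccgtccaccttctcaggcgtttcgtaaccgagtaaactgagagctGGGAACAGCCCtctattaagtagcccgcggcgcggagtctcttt
The other 2 are from genes lower in M1.
COL13A1, chr10:69801656-69801866, plus strand: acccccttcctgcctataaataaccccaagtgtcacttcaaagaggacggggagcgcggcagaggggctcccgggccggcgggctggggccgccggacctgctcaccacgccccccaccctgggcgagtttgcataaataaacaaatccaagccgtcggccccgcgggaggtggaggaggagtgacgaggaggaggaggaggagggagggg
COL17A1, chr10:104085958-104086130, minus strand: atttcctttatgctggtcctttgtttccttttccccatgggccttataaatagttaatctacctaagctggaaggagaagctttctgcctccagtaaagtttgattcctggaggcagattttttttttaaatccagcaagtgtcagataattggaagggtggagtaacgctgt
The spelling occurred 5 times before COL5A1, 2 times before COL27A1, 4 times before COL7A1 and 3 times before COL12A1, and 0 times before COL13A1 and COL17A1. Over whole windows, bases inside exons included, it was found in 54.4% of all promoter windows and in 9 of the 15 tested collagen genes. Among these were COL5A3, COL6A2, COL15A1 and COL18A1, which were not called in M1 against M0. The whole windows of COL13A1 and COL17A1 held 0 as well. G and C made 40.5% of the window shown for COL17A1 and 60.8% to 75.6% of the rest of this set. Whether the spelling goes with direction was not tested. Not shown are 2 genes higher in M1, COL6A3 and COL16A1, whose whole windows held 0 and 5 matches. Exons covered 211 and 250 bases of those windows. COL8A1, lower in M1, had no entry. Not every gene higher in M1 thus had the spelling. Of other motifs in whole windows, GGGCGG was in 11 of 15 (42.6% of all windows), TATAAA in 5 (10.7%), TGANTCA in 0 (6.6%) and TTCNNNGAA in 1 (6.6%), before COL7A1. The background counts single windows, while a collagen gene was counted if any of its windows matched. COL4A6, COL5A1 and COL18A1 had more than a single window.

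**Figure D4:**
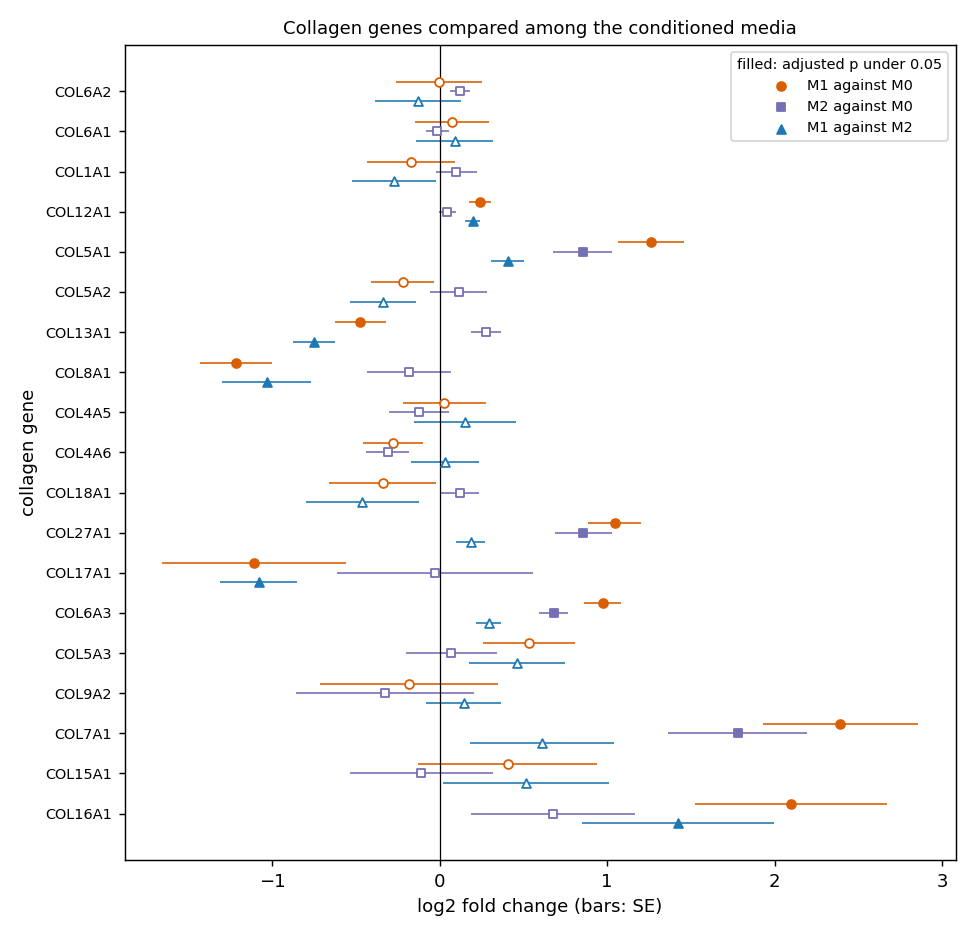
Log2 fold change of the 19 tested collagen genes among the conditioned media, with bars for the SE of 3 against 3 libraries, filled where the adjusted p was under 0.05. COL5A1, COL27A1, COL6A3 and COL7A1 are filled and right of 0 in both M1 and M2 against M0, and COL8A1, COL13A1 and COL17A1 are filled and left of 0 in M1 against M0 and M1 against M2.

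Besides the chains, 7 lists of genes tied to collagen were counted in each comparison. They cover synthesis, export, processing, receptors, basement membrane and fibril partners, and transcription factors. Brackets after counts give the shares of all genes tested that were higher and lower. Of 21 tested genes of intracellular synthesis and folding, 14 were higher and 2 lower in M1 against M0 (25.5% and 26.7% of all genes). The counts were 11 and 2 in M1 against M2 (15.9% and 16.6%) and 4 and 3 in M2 against M0 (12.5% and 12.7%). Against Ctrl they were 3 and 8 in M0 (31.1% and 30.6%). In M1 they were 12 and 7 (35.2% and 35%), and in M2 6 and 10 (34.1% and 32.4%). The largest called changes in M1 against M0 were CREB3L1 (log2 1.82 ± 0.20, adjusted p = 8.22e-06), a membrane-bound transcription factor of secretory cells, and P4HA2 (1.39 ± 0.07, adjusted p = 3.52e-08), a prolyl 4-hydroxylase subunit. In M2 against M0, COLGALT2 (0.51), a collagen galactosyltransferase, was called with an adjusted p of 0.0471, and PLOD2, a lysyl hydroxylase, fell by 0.50 (adjusted p = 0.00185). Against Ctrl, P3H3, a prolyl 3-hydroxylase, fell by 1.12 in M0, 1.44 in M1 and 1.28 in M2. P4HA1 fell by 0.93 in M0, 0.33 in M1 and 1.08 in M2, and CREB3L1 rose by 1.42 in M1.

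Of 7 tested genes for export from the endoplasmic reticulum, 5 rose and 0 fell in M1 against M0 (25.5% and 26.7% of all genes). The rises were led by SEC24D (log2 0.55) and SEC31A (0.44) of the COPII coat. In M2 against M0 MIA3, the procollagen cargo receptor, rose by 0.26 and SAR1B, the coat's GTPase, fell by 0.26. In M1 against M2, 3 rose and 0 fell (15.9% and 16.6%). Against Ctrl the counts were 4 higher and 2 lower in M0 (31.1% and 30.6%). They were 5 and 2 in M1 (35.2% and 35%) and 4 and 2 in M2 (34.1% and 32.4%). SEC23A fell by 0.80 in M0, 0.38 in M1 and 0.82 in M2, and SAR1B by 0.28, 0.38 and 0.54. KLHL12 rose by 0.46, 0.36 and 0.31, SEC24D by 0.39, 0.94 and 0.50 and MIA3 by 0.16, 0.59 and 0.42.

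Of 10 tested genes of extracellular processing and cross-linking, 3 rose and 3 fell in M1 against M0 (25.5% and 26.7% of all genes). The counts were 3 and 0 in M2 against M0 (12.5% and 12.7%) and 2 and 4 in M1 against M2 (15.9% and 16.6%). TGM2, a transglutaminase, rose by log2 1.87 ± 0.13 and LOXL4, a lysyl oxidase relative, by 1.41 ± 0.11 in M1 against M0. LOXL4 (0.99 ± 0.14) and LOX (0.96 ± 0.08), the lysyl oxidase itself, rose in M2 against M0. Against Ctrl the counts were 2 higher and 5 lower in M0 (31.1% and 30.6%). They were 2 and 3 in M1 (35.2% and 35%) and 3 and 5 in M2 (34.1% and 32.4%). LOXL4 rose there by 1.14, 2.55 and 2.13, from 0.376 ± 0.112 CPM in Ctrl to 0.810, 2.14 and 1.62. TGM2 fell by 1.40 in M0 and 0.72 in M2 and rose by 0.46 in M1, and LOXL1 fell by 0.72, 1.25 and 0.54. ADAMTS3, a procollagen N-proteinase, fell by 0.92 in M0 and 1.14 in M2 and did not pass in M1 (log2 -0.39).

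Of 11 tested collagen receptors and uptake genes, 5 rose and 1 fell in M1 against M0 (25.5% and 26.7% of all genes). The counts were 1 and 2 in M2 against M0 (12.5% and 12.7%) and 5 and 1 in M1 against M2 (15.9% and 16.6%). ITGA2, the α2 integrin chain that binds collagen, stood at 366 ± 67.4 CPM in Ctrl, 210 ± 59.2 in M0, 867 ± 99.3 in M1 and 144 ± 15.2 in M2. It rose by log2 2.05 ± 0.26 in M1 against M0 and by 1.24 in M1 against Ctrl, and fell by 0.54 in M2 against M0 and 1.34 in M2 against Ctrl. DDR1, a collagen-binding receptor kinase, rose by 1.13 in M1 and 0.68 in M2 against M0. Against Ctrl the counts were 2 higher and 3 lower in M0 (31.1% and 30.6%). They were 7 and 3 in M1 (35.2% and 35%) and 3 and 6 in M2 (34.1% and 32.4%). SDC1, a heparan sulfate proteoglycan, fell by 1.69, 1.67 and 1.77, and DDR2 rose by 1.26, 0.81 and 1.21 in M0, M1 and M2.

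Of 15 tested basement membrane partners of collagen, 9 rose and 2 fell in M1 against M0 (25.5% and 26.7% of all genes). The counts were 5 and 3 in M2 against M0 (12.5% and 12.7%) and 7 and 3 in M1 against M2 (15.9% and 16.6%). LAMB3 and LAMA3, chains of laminin-332, rose by 2.77 ± 0.11 and 2.41 ± 0.17 in M1 against M0, and by 3.38 and 3.21 in M1 against Ctrl. LAMB3 stood at 102 ± 12 CPM in M1 and 14.9 ± 0.906 in M0. LAMB2 (0.71) and LAMA2 (0.66) rose in M2 against M0. Against Ctrl the counts were 8 higher and 4 lower in M0 (31.1% and 30.6%). They were 8 and 6 in M1 (35.2% and 35%) and 8 and 5 in M2 (34.1% and 32.4%). SPARC, a collagen-binding glycoprotein, fell in all 3 media (log2 -2.03 in M0, -1.72 in M1 and -2.46 in M2), as did NID2, a linker of laminin and type IV collagen (log2 -1.29, -1.82 and -1.83).

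Of 7 tested fibril-associated proteins, 3 rose and 0 fell in M1 against M0 (25.5% and 26.7% of all genes). The counts were 2 and 1 in M2 against M0 (12.5% and 12.7%) and 4 and 1 in M1 against M2 (15.9% and 16.6%). Against Ctrl the counts were 2 and 2 in M0 (31.1% and 30.6%). They were 4 and 2 in M1 (35.2% and 35%) and 2 and 2 in M2 (34.1% and 32.4%). THBS1, which encodes thrombospondin-1, rose against M0 by 1.5 (M1) and 0.76 (M2) on the log2 scale and fell by 1.37 in M0 and 0.61 in M2 against Ctrl, while M1 did not pass (log2 0.13). FN1, the fibronectin gene, rose by 0.71 in M1 against M0 and 0.97 against Ctrl. LUM, a small leucine-rich proteoglycan with 26, 22, 47 and 7 reads in all in Ctrl, M0, M1 and M2, fell in M2 by 1.81 against M0 and by 1.65 against Ctrl, the latter with adjusted p = 0.00657 but 0.0584 in DESeq2. BGN, a proteoglycan of the same family, had 1 read in all in Ctrl and 34, 26 and 63 in M0, M1 and M2, which are ratios of 45.1 (exact 95% interval 7.56 to 1833), 25.6 (4.20 to 1049) and 71.5 (12.4 to 2870), counting error only.

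Of 13 tested transcription factors with known collagen targets, 3 rose and 3 fell in M1 against M0 (25.5% and 26.7% of all genes). The counts were 1 and 2 in M2 against M0 (12.5% and 12.7%) and 2 and 2 in M1 against M2 (15.9% and 16.6%). SOX9, an activator of cartilage collagen genes, fell by 0.71 in M1 and 0.43 in M2 against M0, and by 1.45, 2.15 and 1.88 in M0, M1 and M2 against Ctrl. FLI1, known as a repressor of type I collagen genes, rose by 0.62 in M1 against M0, and RFX5 fell by 0.84 in M2 against M0. Against Ctrl the counts were 5 higher and 4 lower in M0, 5 and 5 in M1, with 5 and 5 in M2. These are near the background shares of 30.6% to 35.2% each way. CEBPB, at 15 ± 1.16 CPM in Ctrl, rose by 3.11, 2.85 and 3.03 in M0, M1 and M2. Of the genes named from the 7 lists, the calls of COLGALT2, SAR1B, ITGA2 and LUM in M2 against M0 were lost when single libraries were left out. COLGALT2, ITGA2 and LUM were not called without M0 replicate 1 (adjusted p = 0.137, 0.0663 and 0.0901), and COLGALT2, SAR1B, ITGA2 and LUM were not called without M0 replicate 3 (0.215, 0.145, 0.211 and 0.0567), M2 replicate 2 (0.153, 0.0873, 0.118 and 0.0522) or M2 replicate 3 (0.149, 0.0780, 0.0772 and 0.0538), and SAR1B without M2 replicate 1 (0.0604). COLGALT2 was also not called in a fit of the M0 and M2 libraries alone (0.0570). Without M0 replicate 3 and M2 replicate 2 together, 9 of the genes named in M2 against M0 lost the call, these 4 (0.434, 0.281, 0.462 and 0.134) and PLOD2 (0.0512), MIA3 (0.109), LOXL4 (0.116), DDR1 (0.0816) and THBS1 (0.0688).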

How the data were processed

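MV3 RNA was profiled by single-read sequencing of stranded mRNA libraries, per the labels' protocols, over 2 runs that cannot be parted here. As aligners and quality tools the submitters' processing notes list STAR 2.5.4b, Bowtie2 2.2.3, Trimmomatic 0.36 and FastQC 0.11.7, besides DESeq2 1.20.0, R 3.5.0 and R 3.3.3, on hg38. Which tool counted reads, with what strand setting and gene models, is not given in the sources used here. Raw read counts for 58288 genes, as deposited by the authors, served for every test, and 12 of 12 sample files equalled the columns of the table. The authors also deposited variance-stabilized values on a log2 scale, read here for gene symbols only.

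The test was the quasi-likelihood F test of edgeR 4.0.16 (R 4.3.3) on the counts, with 1 model of 4 group means over all 12 libraries, TMM scaling, a low-count filter (filterByExpr, 10 reads and 15 in total) and Benjamini-Hochberg adjustment over 14088 genes, called under 0.05. The common biological coefficient of variation was 0.0831. Fold changes are from that model, and their SE is a separate estimate from the spread of log2 CPM (prior count 2) over 3 and 3 libraries. Levels per kb used merged exons of GENCODE 29. The script was tested on simulated data. Replicates differed beyond sampling noise (chi-square per degree of freedom 3.18 to 28.73). Alternatives were DESeq2 1.42.0, its size factors in edgeR, no filter, only the groups compared, a replicate block and libraries left out.

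The members and gene lists were chosen with earlier results of these data known. All tested collagen genes are named, with every library given where a group mean reached 5 CPM and for the 5 others of lowest joint p. Per list the 2 most changed called genes are named in M1 and M2 against M0 and in each medium against Ctrl. Intervals and limits for 0 reads reflect counting error alone, as reads were not collapsed to molecules.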

Additional observations from a re-analysis of the deposited data

How the results depend on the processing

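With single libraries left out in turn, the number of collagen genes called ran from 8 to 11 in M1 against M0, 3 to 4 in M2 against M0, 3 to 6 in M1 against M2, 9 each time in M0 against Ctrl, 13 to 15 in M1 against Ctrl, 9 to 10 in M2 against Ctrl and 8 to 10 in the joint test. In the same order, the shares of all genes called were 43.4% to 49.2%, 11.1% to 27.1%, 23.3% to 28.8% and 54.9% to 58.1%. For the last 3 they were 65.6% to 68.4%, 60.2% to 63.9% and 47.0% to 55.0%. Of 54 calls of members in the pairwise comparisons, 42 were kept in every fit with a single library left out. Without a filter on low counts, 39 collagen genes were tested in place of 19. M2 against Ctrl then gave 14 calls in place of 9, with COL17A1, COL21A1, COL3A1, COL5A1 and COL6A1 added. Of all genes, 28.9% were called in that fit and 66.5% with the filter. COL6A2 in M1 against M0 ran from log2 -0.18 (without M1 replicate 3) to 0.21 (without M1 replicate 2) around its -0.0047, and stood at 0.21 also without Ctrl replicate 1 and M1 replicate 2 together, a pair chosen after seeing the data. The cause was not tested. Same-numbered libraries deviated together only weakly (r of -0.0775 to 0.154 over 18 pairs, 6 of them above 0.1), so the numbers were not taken as pairs. However, 8 of 12 libraries correlated best with their own number, out of 3 numbers. Whether libraries of the same number belong together was not tested. With a replicate block the counts were 10, 4, 8, 11, 16, 9 and 11, in the order of the first sentence, and COL5A2 was called lower in M1 against M0 (adjusted p = 0.0199) and M1 against M2 (0.00277), COL18A1 lower in M1 against M2 (0.0315) and COL7A1 higher in M1 against Ctrl (0.0386). With that block, the shares of all genes called were 52.9%, 26.4%, 33.7%, 62.0%, 70.6%, 67.0% and 57.3%. Without M0 replicate 3 and M2 replicate 2 together the counts were 8, 3, 6, 9, 14, 10 and 8. The shares in that fit were 41.6%, 3.6%, 28.5%, 56.9%, 69.3%, 61.1% and 42.1%. Of 1400 values of single members under the alternatives, 1259 kept direction and side of the threshold, 44 changed sign with no call in either fit, 51 lost a call, 44 gained one and 2 changed sign with a call (COL6A2, above). Genes near or under 1 CPM, such as COL7A1, COL15A1 and COL16A1, rest on few reads.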
